A study of Mus musculus with 8 samples.

Results

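Basal keratinocytes hold the epidermis to the dermis through hemidesmosomes, and 9 genes of that anchor were followed in mouse skin from birth to day 28. They were the integrin subunit genes Itga6, Itgb4, Itga3 and Itgb1, the laminin chain genes Lama3, Lamb3 and Lama5, and the plakin genes Dst and Plec, each found by its symbol. All 9 were present among the 55418 genes of each file, and all 9 reached 1 FPKM in every library, so the filter on low values removed no member. FPKM relates fragments to transcript length and to sequencing depth, which allows levels to be set side by side between genes. Whole skin came from wildtype mice and from mice labelled hairloss, which carry a spontaneous mutation whose gene is not named in the labels. Each genotype gave 1 library at each of postnatal days 0, 16, 19 and 28, hence 8 libraries, and neither strain nor number of animals is given. Below, each run of 4 values follows the order of those days.

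In the hemidesmosome, integrin α6β4 spans the basal membrane of the keratinocyte. Outside the cell it binds laminin-332, a trimer that holds the Lama3 and Lamb3 chains, and inside it is tied to keratins 5 and 14 by plectin and by the epithelial form of dystonin. Integrin α3β1 binds the same laminin from focal adhesions, where actin takes the place of keratin. Lama5 encodes the alpha chain of laminin-511, another laminin of the basement membrane that also underlies hair follicles and vessels. Inherited loss of many of these genes causes blistering of the skin.

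Estimated depth was 30900000 to 44700000 fragments per library, and 3 fragments from 1 kb of transcript equalled 0.0671 to 0.0971 FPKM, counting error only. The members lay far above that floor, between 8.78 and 146 FPKM. In 2 libraries, the wildtype ones of days 0 and 19, both the Y-linked gene Ddx3y and Xist reached 10 FPKM. At day 28 Ddx3y was at 16.5 FPKM in the wildtype library and listed at 0 in the hairloss library, and Xist at 0.166 and 50.2 FPKM, so sex markers differed with genotype at that day. At day 0 the hairloss library also had Ddx3y listed at 0, and at day 16 the genotypes matched. The part of sex in the members' differences was not tested. Basal keratinocytes were checked on 7 markers, none of which was at 0 in any library, with a summed level of 1392 to 3209 FPKM in wildtype and 1716 to 7548 FPKM in hairloss skin. In whole skin, fewer basal cells and less RNA per basal cell cannot be told apart.

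The question put to the members was how their levels differed between the genotypes at each day and over the 4 days, and between days. In hairloss skin 6 of the 9 stood higher than in wildtype skin of the same age at all 4 days, namely Itga6, Itgb4, Itga3, Itgb1, Lama3 and Plec, although with libraries scaled to basal keratinocyte markers this held for Lama3 and Plec alone. That scaling moves all genes of a library by 1 factor, and the median difference of all genes was then -0.11, -0.32, -0.44 and -0.28. On the deposited scale 11.5% of all 18724 genes tested were higher in hairloss skin at all 4 days. Lamb3 was higher at 3 days, Dst at 2 days and Lama5 at 1 day. Differences at a single age rest on 1 library per group, have no error of their own and were not tested.

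**Figure D1:**
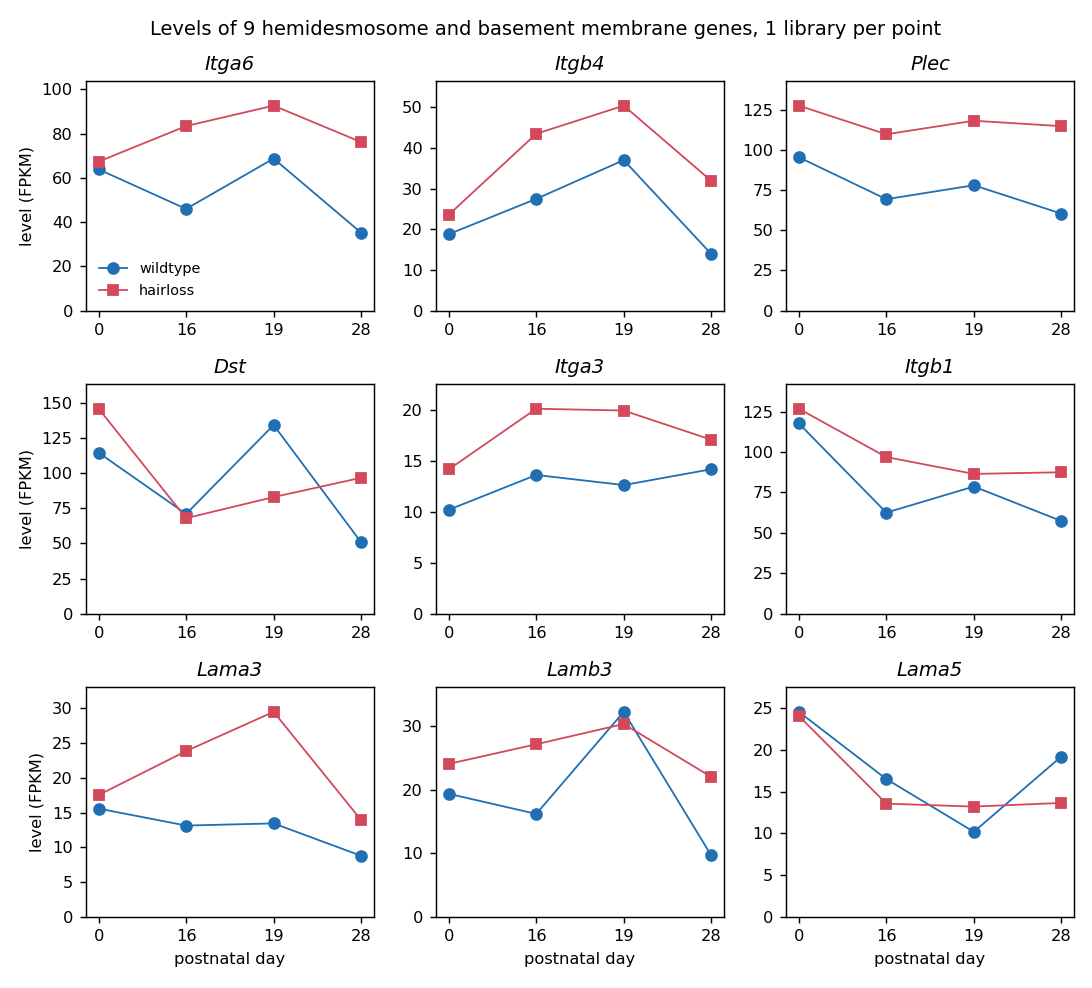
Level of each gene (FPKM, linear axis from 0) against postnatal day, with 1 library per point, circles for wildtype and squares for hairloss. In the Plec panel every hairloss point, from 109.7 FPKM up, lies above every wildtype point, from 95.4 FPKM down, while the Dst and Lama5 lines cross.

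Stretches upstream of 3 members are shown because their levels took different courses: Itga3 stood higher in hairloss skin at all 4 days, Lamb3 had the widest wildtype range, and Lama5 departed from the rest. They come from RefSeq (GRCm38.p6), whose table held windows for 5 of the 9 members. Each runs 5′ to 3′ on the gene's strand and is the longest stretch free of the gene's annotated exons in the gene's window 1. That window holds the 250 bases before a start site, and GC boxes are in capitals. Itga3 and Lamb3 also had a window 2 at another start site, not shown. Window 2 of Itga3, chr11:95069199-95069448, was free of its exons over all 250 bases and held 1 GC box. The Itga3 stretch is chr11:95076802-95076964 on the minus strand, the Lamb3 stretch chr1:193301744-193301992 on the plus strand and the Lama5 stretch chr2:180225860-180226109 on the minus strand.
Itga3: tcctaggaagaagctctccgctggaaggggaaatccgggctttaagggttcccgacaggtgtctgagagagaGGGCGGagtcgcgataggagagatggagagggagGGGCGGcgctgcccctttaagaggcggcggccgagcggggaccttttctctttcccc
Lamb3: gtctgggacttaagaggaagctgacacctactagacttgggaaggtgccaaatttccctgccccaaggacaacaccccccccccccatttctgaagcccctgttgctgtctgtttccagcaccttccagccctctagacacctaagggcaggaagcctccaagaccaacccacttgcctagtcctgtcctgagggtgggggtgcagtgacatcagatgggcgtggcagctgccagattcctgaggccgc
Lama5: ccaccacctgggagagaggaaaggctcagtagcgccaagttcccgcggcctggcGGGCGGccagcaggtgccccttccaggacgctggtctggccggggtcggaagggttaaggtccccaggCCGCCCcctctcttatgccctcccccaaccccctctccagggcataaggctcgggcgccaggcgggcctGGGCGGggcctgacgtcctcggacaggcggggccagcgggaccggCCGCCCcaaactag
A GC box, GGGCGG on either strand, was present in 5 of the 8 windows of these 5 members and in 32.7% of the 32851 windows of 250 bases in the table. The Lama5 window held 4, each Lamb3 window 0, and the stretch of Itga3 shown held 2. The AP-1 letters TGANTCA (6.75% of all windows), the grainyhead letters AACCNGTT (1.79%) and TATAAA (12.4%) were found in 0 of the 8 windows on either strand. A match is only a run of letters, and its absence says nothing of the factor.

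Itga6 and Itgb4 encode the α6 and β4 subunits of the hemidesmosomal integrin. In wildtype skin Itga6 (chromosome 2, 71745616 to 71858416, build mm10) measured 63.8, 45.9, 68.7 and 35.2 FPKM, and the hairloss series read 67.3, 83.4, 92.6 and 76.1 FPKM. The newborn libraries were nearly level, and the ratio of hairloss to wildtype was widest at day 28, 2.16, where the wildtype library was at its lowest. In wildtype skin Itgb4 (chromosome 11, 115974709 to 116008412) measured 18.8, 27.5, 37.0 and 13.9 FPKM, and the hairloss series read 23.6, 43.5, 50.4 and 31.9 FPKM. Both genotypes had their highest Itgb4 level at day 19, and the day 28 libraries differed by 2.29-fold. For both subunits the ranges of the genotypes over the 4 days overlapped.

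The subunits did not keep a fixed proportion with age. The ratio of Itga6 to Itgb4 was 3.40, 1.67, 1.86 and 2.52 in the wildtype libraries and 2.86, 1.92, 1.84 and 2.39 in the hairloss libraries. Within a day the genotypes lay closer to each other than the newborn libraries lay to those of day 16. The β4 subunit pairs with α6 alone, whereas α6 also pairs with β1.

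Itga3 and Itgb1 encode the subunits of the focal adhesion integrin, and β1 serves many α chains in most cell types of skin. In wildtype skin Itga3 (chromosome 11, 95044474 to 95076801) measured 10.2, 13.6, 12.6 and 14.2 FPKM, and the hairloss series read 14.2, 20.1, 19.9 and 17.1 FPKM. Its levels touched only at their edges, the lowest hairloss value, 14.17 FPKM at day 0, lying just under the highest wildtype value, 14.18 FPKM at day 28. In wildtype skin Itgb1 (chromosome 8, 128685654 to 128733200) measured 118, 62.5, 78.7 and 57.3 FPKM, and the hairloss series read 127, 96.9, 86.5 and 87.5 FPKM. Its newborn levels were the highest in both genotypes, and the genotypes lay apart by 1.55-fold at day 16 and 1.53-fold at day 28 but by 1.08-fold and 1.10-fold at days 0 and 19. Itga3 had the narrowest wildtype range of the members, 1.39-fold over the 4 days.

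Lama3 and Lamb3 encode the α3 and β3 chains of laminin-332. In wildtype skin Lama3 (chromosome 18, 12333819 to 12583013) measured 15.6, 13.1, 13.4 and 8.78 FPKM, and the hairloss series read 17.5, 23.9, 29.5 and 13.9 FPKM. The hairloss library of day 19 was the highest of the 8, at 2.19 times its wildtype counterpart, the widest ratio of Lama3 at any day. In wildtype skin Lamb3 (chromosome 1, 193207699 to 193343878) measured 19.4, 16.2, 32.3 and 9.68 FPKM, and the hairloss series read 24.1, 27.2, 30.4 and 22.0 FPKM. Wildtype Lamb3 covered a 3.34-fold range, from its low at day 28 to a peak at day 19 above all hairloss libraries, whereas hairloss levels stayed within 1.38-fold. The annotated Lamb3 locus also spans G0s2 and Hsd11b1 on the other strand, at up to 30.2 and 6.98 FPKM, and no source used here says whether strand was counted.

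The ratio of Lama3 to Lamb3, chains of the same trimer, was 0.804, 0.810, 0.416 and 0.907 in the wildtype libraries and 0.728, 0.878, 0.972 and 0.632 in the hairloss libraries. The wildtype library of day 19 had the lowest ratio of the 8 and the hairloss library of that day the highest.

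Lama5 took another course. In wildtype skin Lama5 (chromosome 2, 180176373 to 180225859) measured 24.6, 16.5, 10.2 and 19.2 FPKM, and the hairloss series read 24.1, 13.6, 13.2 and 13.6 FPKM. Newborn skin was highest and level between the genotypes, and from day 16 on the hairloss libraries lay close together while the wildtype library of day 19 was the lowest of all 8. Lama5 was thus higher in hairloss skin at day 19 and lower at days 16 and 28. The sum of 6 hair matrix and inner root sheath markers was also lowest in that wildtype library, at 203, 4763, 49.98 and 4827 FPKM in the wildtype series and 262, 3389.8, 1019.9 and 188 FPKM in the hairloss series, with no marker at 0. Their part in the Lama5 levels was not tested.

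The ratio of Lama3 to Lama5 sets the main laminin alpha chains of the epidermal basement membrane against each other. It was 0.634, 0.796, 1.32 and 0.457 in the wildtype libraries and 0.729, 1.76, 2.24 and 1.02 in the hairloss libraries. The hairloss library had the higher ratio at each of the 4 days.

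**Figure D2:**
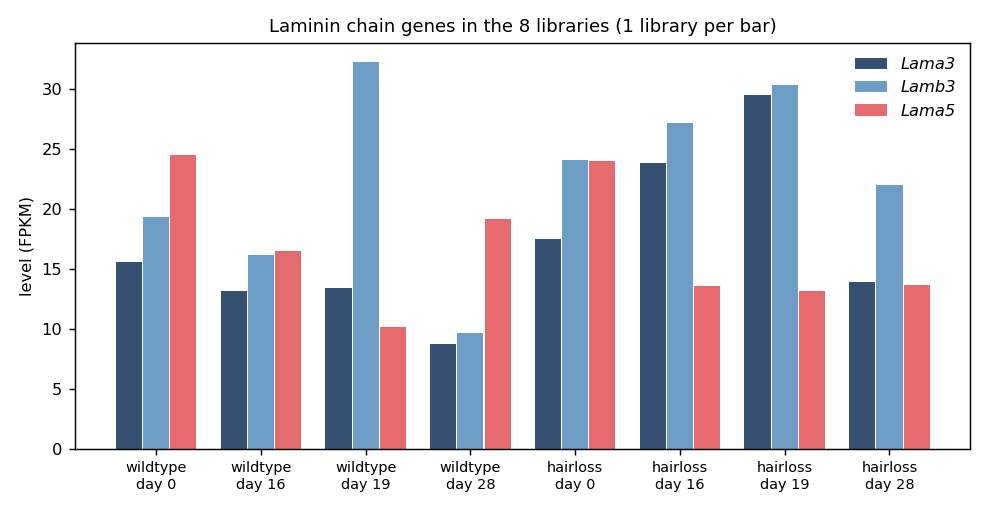
Levels of Lama3, Lamb3 and Lama5 (FPKM, linear axis from 0) in the 8 libraries, with 1 library per bar. At day 19 the wildtype library holds 13.4, 32.3 and 10.2 FPKM of the 3 chains, and the hairloss library 29.5, 30.4 and 13.2 FPKM.

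Plec encodes plectin, the plakin that binds β4 and keratin filaments and that also links filaments in muscle and many other cells. In wildtype skin Plec (chromosome 15, 76170974 to 76232574) measured 95.4, 69.3, 78.0 and 60.3 FPKM, and the hairloss series read 128, 109.7, 118 and 115 FPKM. It was the only member whose genotypes did not overlap, and its hairloss levels stayed within 1.16-fold over the 4 days. Among all 18724 genes, every hairloss library lay above every wildtype library for 2.35%. That share covers this order alone, while members were checked for either order. One end of the locus is shared with Parp10 on the same strand, at up to 14.5 FPKM.

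Dst encodes dystonin, whose epithelial form is the hemidesmosomal plakin BPAG1e and whose other forms belong to nerve and muscle. Each gene has 1 deposited value, across the 20 annotated transcripts of Dst and the 22 of Plec, so the epithelial form was not measured by itself. In wildtype skin Dst (chromosome 1, 33908225 to 34308661) measured 114, 70.9, 134 and 50.7 FPKM, and the hairloss series read 146, 67.9, 82.9 and 96.6 FPKM. It was 1.90 times as high in hairloss as in wildtype skin at day 28, but 0.618 times as high at day 19, when the wildtype library was at its peak. The ratio of Dst to Plec was 1.199, 1.02, 1.72 and 0.841 in the wildtype libraries and 1.14, 0.618, 0.701 and 0.841 in the hairloss libraries.

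Marker lists of other tissues were set beside Dst. Its hairloss minus wildtype difference on the log2(FPKM + 1) scale was 0.35, -0.06, -0.69 and 0.92. The median difference of 5 endothelial markers was 0.23, -0.04, -0.82 and 0.76, and that of 6 skeletal muscle markers 0.39, -1.13, -1.07 and 1.15. Among Schwann cell and nerve markers, 5 genes, the medians were 0.19, -0.52, -0.76 and 0.83. These lists and that of adipocytes, at 0.23, -0.08, -1.16 and 0.74, had the sign of Dst at each day, though muscle lay far from Dst at day 16. The other marker lists did not. Pericytes and smooth muscle, at 0.13, 0.08, -0.24 and 0.75, differed from Dst in sign at day 16 alone. Melanocytes were at -0.43, -0.21, -0.71 and -1.83 and macrophages at -0.33, 1.55, -0.40 and 0.64. Neutrophils were at 0.36, 3.36, 5.68 and 2.56, with only 2 genes compared at day 0 and 3 at day 28. The melanocyte median of day 19 covered 3 genes. Summed endothelial markers ranged from 27.0 to 80.4 FPKM in wildtype and from 46.4 to 98.8 FPKM in hairloss skin, and summed muscle markers from 984 to 4282 FPKM and from 458 to 5038 FPKM. The nerve sum ranged from 22.5 to 175 FPKM and from 26.2 to 101 FPKM. No marker of the endothelial, muscle or nerve list was at 0 in a library, and their part in the Dst difference was not tested.

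**Figure D3:**
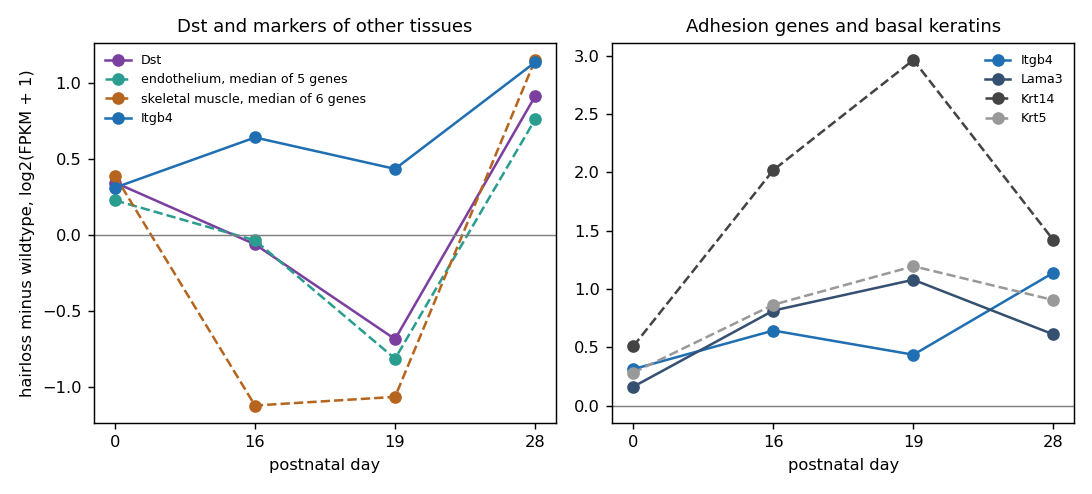
Hairloss minus wildtype on the log2(FPKM + 1) scale at each day, 1 library per genotype and day, for Dst and Itgb4 beside 2 marker medians (left) and for Itgb4 and Lama3 beside basal keratins (right, dashed). At day 19 Dst lies below 0 together with the endothelial and skeletal muscle medians, at -0.69, -0.82 and -1.07, while Itgb4 lies at 0.44.

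Few members passed a size threshold of 2-fold between the genotypes, set on log2(FPKM + 1), where low genes show smaller folds. At day 0 it was 0 of 9 in either direction, against 1.49% of 16685 genes compared that were higher and 1.58% that were lower in the hairloss library. At day 16 it was again 0 of 9, against 5.34% higher and 7.39% lower. At day 19 Lama3 alone was higher and 0 were lower, against 6.53% and 5.76%. At day 28 Itga6, Itgb4 and Lamb3 were higher and 0 lower, against 5.60% and 6.42%. At 1.5-fold, the higher members numbered 6 at day 16 (all genes 11.7%), 3 at day 19 (14.3%) and 7 at day 28 (13.3%), while Dst was lower at day 19 (14.4% of all genes). The median over the 9 members was 0.30, 0.64, 0.43 and 0.92, against -0.01, -0.08, -0.00 and 0.00 over all genes compared.

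Over the 4 days together, the genotype difference was tested with limma, with age as a block, against its own spread between ages. The mean difference on the log2(FPKM + 1) scale was 0.67 ± 0.17 for Lama3, 0.64 ± 0.13 for Plec, 0.63 ± 0.16 for Itgb4 and 0.61 ± 0.19 for Itga6 (SE, 4 ages). It was 0.51 ± 0.21 for Lamb3, 0.46 ± 0.11 for Itga3 and 0.37 ± 0.15 for Itgb1. For Dst it was 0.13, with a 95% interval of -0.56 to 0.81, and for Lama5 -0.10, with an interval of -0.50 to 0.29. No member (0 of 9) passed the threshold of 0.05 after Benjamini-Hochberg adjustment over 18724 genes, of which 0.0374% passed. The adjusted p of limma was lowest for Plec, 0.308, and highest for Dst, 0.842. At an unadjusted p under 0.05 stood 5 of 9 members (Plec, Itga3, Lama3, Itgb4 and Itga6), against 13.4% of all genes. The median of the 9 mean differences was 0.51, and that of all genes -0.04.

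**Figure D4:**
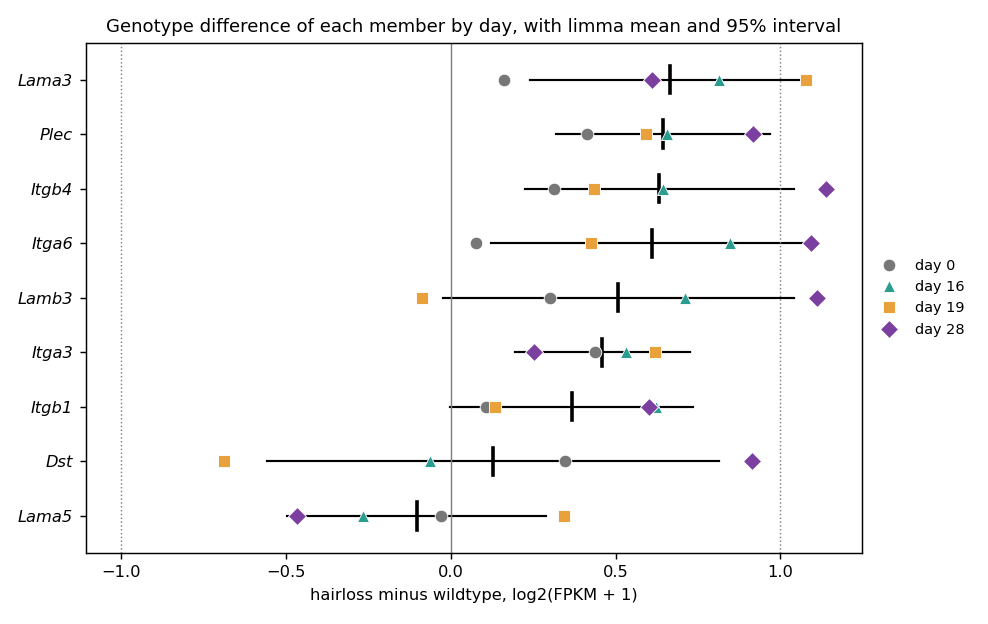
Hairloss minus wildtype on the log2(FPKM + 1) scale for each gene at each day, with a vertical bar at limma's mean over 4 ages, a line for its 95% interval and dotted lines at 2-fold. The day 28 symbols of Itga6, Itgb4 and Lamb3 and the day 19 symbol of Lama3 lie beyond 2-fold, and the Dst symbols run from -0.69 to 0.92.

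The hemidesmosome ties to basal keratins, and of these Krt14 stood further apart between the genotypes than Itgb4 at each day. In wildtype skin Krt14 measured 399, 1103, 618 and 619.7 FPKM, and the hairloss series read 569, 4475, 4829 and 1658 FPKM. In wildtype skin Krt5 measured 573, 1308, 831 and 712 FPKM, and the hairloss series read 697, 2383, 1903 and 1334 FPKM. The ratio of Itgb4 to Krt14 was 0.0471, 0.0249, 0.0599 and 0.0225 in the wildtype libraries and 0.0415, 0.00972, 0.0104 and 0.0193 in the hairloss libraries, lower in hairloss skin at each day. The ratio of Itgb4 to Krt5 was 0.0328, 0.0210, 0.0445 and 0.0196 in the wildtype libraries. In the hairloss libraries it was 0.0338, 0.0183, 0.0265 and 0.0239, higher at days 0 and 28 and lower at days 16 and 19. The other basal markers were mixed. On the log2(FPKM + 1) scale, hairloss minus wildtype, Cdh3 was at -0.01, 0.16, 1.38 and -0.60. Dsc3 was at -0.09, 0.34, 0.40 and 0.10. Krt15, a keratin of basal and follicle cells, measured 172, 421, 1018 and 350.2 FPKM in wildtype skin, and the hairloss series read 219, 272, 212 and 377 FPKM, lower in hairloss skin at days 16 and 19. Fgfr2, a growth factor receptor, was also lower there at those days, with a difference of -0.67 and -0.79 on the log2(FPKM + 1) scale. Trp63, the basal transcription factor p63, was at 45.8, 68.1, 47.8 and 50.8 FPKM in the wildtype series and 39.4, 67.4, 74.7 and 55.3 FPKM in the hairloss series.

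When libraries were scaled to an equal geometric mean of the 7 basal markers, Itga6 was at -0.08, Itgb4 at -0.07, Itgb1 at -0.37 and Lamb3 at -0.58 (log2, hairloss minus wildtype) at day 19, while Lama3 was at 0.59. The median of all genes moved with the scaling from -0.00 to -0.44 at that day, and that of the members was -0.08. Itga6, Itgb4, Itgb1 and Lama5 turned from above to below 0, while Lamb3 and Dst were below 0 on either scale. Since the factor is the same for every gene, a turn of sign here is not particular to the members. At day 28 Itga6, Itgb4 and Lamb3 were still higher on that scale, at 0.78, 0.83 and 0.81, under 2-fold.

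Neutrophil markers stood higher in hairloss skin, with a sum over 4 genes of 58.6, 3748, 6514 and 520.2 FPKM in the hairloss series against 45.0, 151, 11.4 and 48.0 FPKM in the wildtype series. Macrophage markers, also 4 genes, summed to 100.3, 326, 214 and 191 FPKM against 121, 109, 244 and 126 FPKM. Most of the neutrophil sum of the hairloss library of day 19 came from S100a8 and S100a9, at 3499 and 3004 FPKM. Csf3r and Cxcr2 were at 5.59 and 5.81 FPKM there. At day 28 Csf3r was at 0.682 FPKM in the hairloss and 0.369 FPKM in the wildtype library, and Cxcr2 at 2.50 and 0.0822 FPKM. No marker of either list was at 0 in a library. Their part in the members' levels was not tested.

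Across ages, the wildtype libraries gave a common low point on the deposited scale. Of the 9 members 7 had their lowest wildtype level at day 28, the exceptions being Itga3, lowest at day 0, and Lama5, lowest at day 19. Over all genes 25.5% were lowest in that wildtype library. In hairloss skin Lama3 and Lamb3 alone were lowest at day 28. On the log2(FPKM + 1) scale, day 28 less day 19 in wildtype skin was -1.64 for Lamb3, -1.38 for Dst, -1.35 for Itgb4 and -0.95 for Itga6. In hairloss skin it was -0.45, 0.22, -0.64 and -0.28 for the same genes.

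The age steps were tested with limma with genotype as a block, and 0 of 9 members passed the adjusted threshold in any of them. From day 0 to 16 the adjusted p was 0.104 for Itgb1, whose mean step was -0.64 ± 0.21 (SE, 2 genotypes), and 0.108 for Itgb4, at 0.69 ± 0.23. Among all genes 8.0% passed in that step. An unadjusted p under 0.05 was found for 4 of 9 members (Itgb1, Itgb4, Lama5 and Itga3) and for 6260 of 18724 genes. From day 16 to 19 the lowest adjusted p of a member was 0.673, with 0.0160% of all genes passing. At an unadjusted p under 0.05 stood 0 members, against 975 of 18724 genes. From day 19 to 28 the lowest adjusted p of a member was 0.375, for Itgb4 at -0.995 ± 0.23, with 0.00% of all genes passing. Unadjusted, 3 members (Itgb4, Lamb3 and Lama3) and 1910 of 18724 genes had a p under 0.05. In the test for any change with age the adjusted p of Itgb4 was 0.133, with 0.315% of all genes passing. Before adjustment 3 members (Itgb4, Lama5 and Itgb1) were under 0.05, against 4543 of 18724 genes. With libraries scaled to basal markers, 6 members passed in the step from day 0 to 16, against 10376 of 19462 genes. For any change with age 4 passed, against 5946 of 19462 genes. The median step of all genes from day 0 to 16 moved to -0.73 with that scaling.

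Levels per length formed an upper group of 4 genes and a lower group of 5. Itgb1, Dst, Plec and Itga6 held the 4 highest places in each of the 8 libraries, their order differing from library to library. Itgb4, Lamb3, Lama3, Lama5 and Itga3 shared the lower places. In hairloss skin Plec ranked highest from day 16 on, and in wildtype skin Dst led at days 16 and 19. Between neighbours in the order, ranges over the libraries overlapped.

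Profiles over the 8 libraries, each centred on its mean of log2(FPKM + 1), were closest for Itga6 and Lamb3, with a root mean square difference of 0.21, then for Itga6 and Plec and for Itgb1 and Plec, both at 0.22. Lama5 was farthest from the others, with a mean distance of 0.65 to the 8 other members, against 0.36 for Itga6, the most central member. By the same measure, the coding genes nearest to each member were sought among 11357 that reached 1 FPKM in every library. The nearest to Itga6 were Jak1 at 0.09, Trim25 at 0.12 and Camk2d at 0.12, and those to Itgb4 were Thbd at 0.13, Il15ra at 0.14 and Fmnl1 at 0.17. Lama3 had Sbno2 at 0.11, Stat3 at 0.15 and Tgfb1 at 0.15, and Lamb3 had Dkk3 at 0.10, Mctp1 at 0.12 and Epas1 at 0.12. Itga3 had Ubac2, Mob3a and Sdf4, Itgb1 had Insyn1, Afap1 and Ephb4, and Plec had B9d2, Dip2a and Klc1. Dst had Nr2f2, Dpyd and Emcn, the last of these an endothelial marker, and Lama5 had Traf4, Tcf7 and Zfp101. Likeness over 8 libraries is a description and was not tested.

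Partner genes of the hemidesmosome, 7 in all, were measured beside the members. In the genotype test with limma 0 of 7 passed the adjusted threshold and 4 had an unadjusted p under 0.05 (all genes 13.4%). The median mean difference was 0.51, against -0.04 over all genes. In wildtype skin Col17a1, the transmembrane collagen of the hemidesmosome, measured 45.4, 99.3, 183 and 52.8 FPKM, and the hairloss series read 54.4, 147, 164 and 122 FPKM. Its level peaked at day 19 in both genotypes, as that of Itgb4 did. Cd151, a tetraspanin that associates with laminin-binding integrins, measured 30.1, 61.0, 58.3 and 48.2 FPKM in wildtype skin, and the hairloss series read 29.5, 60.5, 46.0 and 38.3 FPKM. From day 0 to 16 Cd151 rose by 1.002 ± 0.16 (SE, 2 genotypes; limma adjusted p = 0.0376) and Krt5 by 1.48 ± 0.29 (limma adjusted p = 0.0462).

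Members of the basement membrane's own matrix were also followed after birth. From day 0 to 16, 8 of 18 tested matrix genes passed the adjusted threshold as falling and 0 as rising. Over all genes, 4.42% passed as falling and 3.58% as rising in that step. Ntn4 rose by 2.32 ± 0.50 without passing (SE, 2 genotypes, limma adjusted p = 0.0528). Mean steps that did not pass were also above 0 for Col4a3 (0.66), Col4a5 (0.50), Col18a1 (0.47) and Col4a4 (0.22). Egfl6, a matrix protein of the follicle basement membrane, fell by 3.54 ± 0.42 (SE, 2 genotypes; limma adjusted p = 0.0248), and Frem1, of the Fraser complex, fell by 2.66 ± 0.36 (limma adjusted p = 0.0315). Col7a1, the anchoring fibril collagen below the hemidesmosome, fell by 2.11 ± 0.43 (limma adjusted p = 0.0488). Nid1, Nid2, Col4a1, Col4a2 and Fras1 also passed. Among the 6 other laminin chains tested Lamb1 passed as falling and 0 as rising. Of 6 genes listed as matrix receptors that are not integrins, Sdc1, Sdc4 and the collagen receptor gene Ddr1 passed as rising and 0 as falling. With no filter on low values, only Ddr1 and Egfl6 of the genes named here as passing in this step still passed. The others of these had an adjusted p of limma of 0.054 to 0.076. Col7a1 did not pass without limma's trend and robust options (adjusted p = 0.0552), nor Sdc4 with scaling without keratins and keratin-associated proteins (adjusted p = 0.0519). With libraries scaled to basal markers the median step of all genes moved to -0.73, and the 8 matrix genes that passed lay lower still with it. Cd151, Krt5 and Sdc4 no longer passed on that scale, at 0.16, 0.62 and 0.20. Krt5 is itself among the markers that set the factor, so its loss there is partly built in.

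Between the genotypes 0 of the 18 matrix genes passed, with a median mean difference of 0.05, and 5 had an unadjusted p under 0.05 (all genes 13.4%). In wildtype skin Col7a1 measured 75.3, 11.3, 24.7 and 7.62 FPKM, and the hairloss series read 80.4, 26.2, 43.2 and 32.9 FPKM, a mean difference of 0.999 ± 0.31 (SE, 4 ages; limma adjusted p = 0.338). Among the 6 other laminin chains 0 passed. Lama2, the alpha chain of muscle and nerve basement membranes, measured 163, 60.0, 131 and 58.4 FPKM in wildtype skin, and the hairloss series read 187, 64.2, 80.2 and 168 FPKM, lower at day 19 and higher at day 28 as for Dst. In wildtype skin Lamb2 measured 50.02, 42.4, 90.5 and 38.0 FPKM, and the hairloss series read 49.4, 35.0, 29.5 and 38.2 FPKM, with its peak in the wildtype library of day 19, where Lamb3 peaked as well.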

How the data were processed

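The 8 libraries of skin RNA, 1 per genotype and age, were made with RNeasy and TruSeq kits, per the labels' protocols. Per the submitters' processing notes, cutadapt, Cuffdiff and build mm10 were used, and no source used here names an aligner or annotation. The deposited values carry no unit and were read as FPKM, because they are not whole, their totals differ and Cuffdiff is named. They hold no counts, so count tests were not used. Depth was estimated from genes with 1 annotated transcript over 1000 bases, from where the values of 1 fragment pile up. Positions come from GENCODE M21, on the same build.

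Values were analysed as log2(FPKM + 1). Tests used limma 3.58.1 in R 4.3.3 (eBayes, trend and robust, two-sided) on all 8 libraries with age and genotype as terms, for the 18724 genes that reached 1 FPKM in any library, with Benjamini-Hochberg adjustment. Residual degrees of freedom were 3, and real change of the genotype difference with age counts as spread. No label says that libraries came from separate animals, so p-values measure only the spread between these libraries. Alternatives varied the pseudocount, filter, scaling, limma settings, genes tested, age block, ages used and fold threshold.

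Named genes were all members, up to 4 genes per list with the largest genotype difference at any age among those of at least 5 FPKM in some library, Krt5, Krt14, Col17a1, Cd151 and Trp63, and the 3 nearest profiles per member. A further gene of that rule is not reported here. Outside that rule, and after their values were seen, genes of the pathway lists past the threshold in an age step, genes overlapping a member, Ddx3y, Xist and Fgfr2 were named. The members and lists were chosen with earlier results of these data known. Other steps used Python 3.11.15 with numpy 2.4.6 and pandas 2.3.3.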

Additional observations from a re-analysis of the deposited data

Results flagged for a closer look

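For 2 members the genotype difference pointed in opposite directions at different ages. On the log2(FPKM + 1) scale, hairloss minus wildtype, Dst stood at -0.69 at day 19 and at 0.92 at day 28. Lama5 stood at 0.35 at day 19 and at -0.46 at day 28. Each value compares 1 library with 1 library, and the difference between the ages was not tested.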

How the results depend on the processing

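With 1 library per genotype and age, no comparison at a single age has an error. No paired analysis by replicate number was possible because each group has 1 library; age served as the block. Over all alternatives, 0 members passed the genotype test, the lowest adjusted p of limma being 0.167 to 0.809. Leaving out each day in turn gave mean differences of -0.13 (without day 28) to 0.40 (without day 19) for Dst and of -0.25 (without day 19) to 0.017 (without day 28) for Lama5, and scaling to basal keratinocyte markers turned Dst to -0.18. Members past the fold threshold at day 19 numbered 3 higher and 1 lower at 1.5-fold, against 2381 and 2394 of 16656 genes compared. With a pseudocount of 5 there were 0 higher, against 533 of 16656 genes. Scaling without keratins and KRTAPs (keratin-associated proteins) also gave 0 higher, against 972 of 16802. With basal scaling there were 0 higher and 1 lower, against 609 and 2260 of 16479 genes. At day 28 the higher members numbered 7 at 1.5-fold (2126 of 16021 genes) and 1 with a pseudocount of 5 (401 of 16021). Without keratins and KRTAPs 5 were higher (1101 of 15922 genes), and with basal scaling 0 (549 of 16146). At day 16 the higher members numbered 6 at 1.5-fold (1901 of 16186 genes). For the step from day 0 to 16, 1 member (Lama5) passed when scaled without keratins and KRTAPs, against 2235 of 18863 genes. With basal scaling 6 passed in that step, against 10376 of 19462 genes, and 4 for any change with age, against 5946. Basal scaling moved the median step of all genes to -0.73, and scaling without keratins and KRTAPs moved it to -0.23. Basal scaling turned the day 0 to 16 steps of Itgb4 to -0.14, Itga3 to -0.38 and Lama3 to -0.72 (-0.11 without keratins and KRTAPs). Itga3 turned to 0.0074, 0.081 and 0.16 from day 16 to 19 with median-ratio scaling, without keratins and KRTAPs and with basal scaling, and to 0.12 from day 19 to 28 with basal scaling. The cause of these changes was not tested.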

Other observations

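Other adhesion genes were read in the same libraries. Of 10 further integrin subunits 0 passed the genotype test after adjustment, and 9 had a mean difference above 0. In wildtype skin Itga5, the fibronectin receptor subunit, measured 15.5, 5.17, 8.33 and 4.04 FPKM in the order of days, and the hairloss series read 20.0, 10.1, 14.0 and 8.35 FPKM, a mean difference of 0.69 ± 0.13 (SE, 4 ages; limma adjusted p = 0.304). From day 0 to 16 Itga5 fell by 1.17 ± 0.18 (SE, 2 genotypes; limma adjusted p = 0.0368, or 0.0579 with no filter on low values). In wildtype skin Itgb6, which keratinocytes make in wounds, measured 3.53, 3.58, 2.02 and 8.56 FPKM, and the hairloss series read 4.58, 9.45, 10.9 and 8.73 FPKM.

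Of 10 focal adhesion genes 0 passed the genotype test, with a median mean difference of 0.03. Vcl, which encodes the actin-binding protein vinculin, had a mean difference of 0.50 ± 0.13 (SE, 4 ages; limma adjusted p = 0.323) and Tln1, which encodes talin, one of 0.36 ± 0.11 (limma adjusted p = 0.342). From day 0 to 16 Fermt2, which encodes kindlin-2, fell by 1.249 ± 0.23 (SE, 2 genotypes; limma adjusted p = 0.0419, or 0.0676 with no filter on low values). In the same step Dsp, the desmosomal plakin desmoplakin, rose by 1.398 ± 0.26 (limma adjusted p = 0.0433, or 0.0644 with no filter and 0.115 with basal scaling). Plakins of desmosomes and the cornified envelope were measured as well. In wildtype skin Evpl, which encodes envoplakin, measured 23.2, 109.9, 31.5 and 55.4 FPKM, and the hairloss series read 33.5, 66.4, 73.0 and 52.5 FPKM. In wildtype skin Ppl, which encodes periplakin, measured 54.0, 145, 75.3 and 87.9 FPKM, and the hairloss series read 61.7, 83.8, 86.0 and 74.5 FPKM. Whether these differences differ from that of Plec was not tested.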
